A study of Mus musculus with 18 samples.

Results

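This account follows 9 transcription factors and transcriptional coactivators that pattern the inner ear (Pax2, Pax8, Eya1, Eya4, Gata3, Tbx1, Dlx5, Hmx2 and Hmx3) in the vestibular organ of mice with and without insulin-like growth factor 1. The members were listed by name, with earlier results of these data known. Each had exactly 1 probe set with a single gene symbol on the Affymetrix Mouse Gene 1.1 ST array, so all 9 were measured, among 19938 genes tested. The study measured Igf1-/- mice, which lack both copies of the gene (null), and Igf1+/+ mice (wild type), all of 1 hybrid Mf1 and 129/sv background. RNA came from vestibular organs of each genotype late in gestation (E18.5, embryonic) and on postnatal days 15 (P15) and 90 (P90). Each of the 6 groups had 3 arrays, 18 in all. Mice were perfused with paraformaldehyde before the inner ear was dissected. The null carries its deletion in every cell and from conception, so that ear and body cannot be told apart as the site of the loss. The labels call the arrays biological replicates without stating how many animals went into each. All E18.5 arrays and the P15 wild-type arrays held RNA of both sexes, and so of more than 1 animal (values below). The p-values reflect only how much the arrays of a group vary. The number of arrays limits the precision.

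The inner ear forms from the otic placode, a patch of ectoderm beside the hindbrain that folds into a vesicle. Paired-domain factors, EYA proteins and sine oculis homeobox factors act there as a network: Pax2 and Pax8 bind DNA, and the EYA proteins are coactivators and phosphatases that the sine oculis factors carry to their targets. Dlx5, Hmx2 and Hmx3 act on the dorsal side of the vesicle, where the semicircular canals and the other vestibular structures arise, while Gata3 and Tbx1 are needed for vesicle growth, neuronal and sensory fate and canal shape. Hmx2 and Hmx3 are neighbouring homeobox genes that share much of their vestibular role.

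Values are log intensities after quantile normalization, which gives every array the same distribution, and a change is therefore a change relative to the other genes. No label or file header used here names the log base. It is likely the natural log, with 1 unit standing for 2.72-fold, whereas in base 2 it would stand for 2-fold. Other scalings moved both steps: the median of all genes moved by 0.39 from P15 to P90 in the null without normalization, by -0.18 from E18.5 to P15 in the wild type with array medians subtracted, and by 0.02 and -0.05 in the same steps after quantile normalization. The lowest member value in any array was 2.90, above the highest of 3 Y-linked genes, 2.18, in the array that held the least Y-linked signal. Some members were nevertheless dim. By mean over all arrays Pax8, Pax2 and Hmx3 stood at percentiles 29.3, 31.7 and 32.2 of all genes, and Eya1, the highest, at 87.3. Hmx3 in the P15 null stood at percentile 22.6. Differences of these 3 dim members are read with that limit. Igf1 itself ran from 6.40 to 6.88 in the null and from 6.98 to 7.07 in the wild type at E18.5. At P15 the ranges were 5.42 to 5.69 and 5.87 to 6.11, and at P90 they overlapped, at 5.31 to 5.51 and 5.39 to 5.63. The labels do not say which part of Igf1 is deleted, so a probe set over the whole transcript is no full check of genotype. Descriptions of the wild-type samples at P15 and P90 name the Igf1-/- genotype, while their titles, sources and genotype fields say Igf1+/+, which was followed here. The female transcript Xist ran from 7.42 to 7.91 in the P90 null arrays and from 1.86 to 3.33 in the P90 wild-type arrays. Y-linked genes were not low in every P90 null array, with Uty at 2.18 to 5.59 beside 6.03 to 6.25 in the wild type, so sex makeup differed between the P90 genotypes without being fully split by them. It also differed between ages in the wild type, where Xist ran from 5.34 to 7.48 at P15. Uty ran from 5.58 to 6.17 in the same P15 wild-type arrays. In every E18.5 array Xist was at 7.31 or above and Uty at 5.33 or above. The arrays of these groups therefore mixed RNA of both sexes, and their spread is that between pools of unknown size. In the P15 null arrays Xist ran from 4.09 to 8.09 and Uty from 3.19 to 6.29, so sex makeup was uneven within that group. The P15 genotype comparison and both null steps use it. Along the third principal component of all genes, E18.5 null arrays 2 and 3 (16.3 and 18.8) lay far from array 1 (-9.4), and P90 wild-type arrays 1 and 2 (13.5 and 17) far from array 3 (-12). The other arrays were spread from -25 to 9.9.

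On GRCm38.p6, per the RefSeq gene table, Pax2 lies at chr19:44746601-44838269, Pax8 at chr2:24420551-24475599, Eya1 at chr1:14168953-14311035, Eya4 at chr10:23102962-23350838, Gata3 at chr2:9857078-9887953, Tbx1 at chr16:18580979-18590671 and Dlx5 at chr6:6877801-6882068. Hmx3 (chr7:131541532-131546027) and Hmx2 (chr7:131548757-131558014) lie side by side, with 2729 bases between the end of Hmx3 and the start of Hmx2. This neighbouring pair fell together at the earlier step, and Hmx2 alone of the pair passed at the later one, in the wild type. The 250 bases before their start sites are shown for that reason, from the RefSeq promoter table (GRCm38.p6, plus strand, 5′ to 3′), with CpG dinucleotides in capitals.
Hmx3 chr7:131542713-131542962: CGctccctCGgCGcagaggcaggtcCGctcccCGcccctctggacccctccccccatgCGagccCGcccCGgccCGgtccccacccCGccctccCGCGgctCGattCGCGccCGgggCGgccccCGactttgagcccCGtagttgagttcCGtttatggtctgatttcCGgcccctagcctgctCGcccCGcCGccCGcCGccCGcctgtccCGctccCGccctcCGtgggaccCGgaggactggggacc
Hmx2 chr7:131548507-131548756: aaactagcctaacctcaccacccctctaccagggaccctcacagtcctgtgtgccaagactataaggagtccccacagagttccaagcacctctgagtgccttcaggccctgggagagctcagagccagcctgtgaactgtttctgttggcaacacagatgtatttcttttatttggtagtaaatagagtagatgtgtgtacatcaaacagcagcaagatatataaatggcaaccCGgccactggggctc
Hmx2 chr7:131554043-131554292: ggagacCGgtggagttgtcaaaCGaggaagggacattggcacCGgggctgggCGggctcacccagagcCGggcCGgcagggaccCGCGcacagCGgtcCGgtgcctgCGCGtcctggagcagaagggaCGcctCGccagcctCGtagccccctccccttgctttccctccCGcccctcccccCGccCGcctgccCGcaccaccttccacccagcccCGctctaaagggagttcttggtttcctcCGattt

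The windows of Hmx3 and of the downstream Hmx2 start were rich in CpG, with 31 and 21 CpG and 76.8% and 70% G or C. The upstream Hmx2 start differed from both, with 1 CpG and 49.6%. The median over 32851 windows of the table was 6 CpG and 52.4%. The table held 12 windows for 7 of the 9 members, which ranged from 1 to 35 CpG and from 49.6% to 76.8% G or C. The letters of 6 motifs of otic regulators were searched on both strands, by exact match. AGATAA was found in 9.99% of all windows, TAATTA in 4.84%, TCACACC in 3.33%, CAAGTG in 11.6%, GTCACGC in 1.78% and TCAGGTT in 3.49%. Among the 12 member windows the single match was CAAGTG in 1 Eya4 window, 56 bases before the start site. A match describes letters in these windows and nothing more.

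The earlier step, from E18.5 to P15, compared the late embryonic organ with the young postnatal one. In the wild type 8 of the 9 members fell (limma, adjusted p under 0.05 over all genes), and Pax2 alone did not pass. Of all genes, 21.9% fell and 19.7% rose in that comparison. In the null 6 of 9 fell, against 20.5% of all genes (20.3% rose), and Pax2, Eya4 and Dlx5 did not pass. The median difference over the members was -0.70 in the wild type and -0.77 in the null, beside -0.05 and -0.04 over all genes. No member rose in either genotype. All P15 arrays lay below all E18.5 arrays for 8 members in the wild type, and for 31.7% of all genes. In the null this held for 6 members and 26.5% of all genes. With the values as deposited, Pax8, Eya4 and Dlx5 no longer passed in the wild type (5 of 9 members called, and 5710 of all genes against 8283) and Pax2 changed sign (0.013). In these whole-organ samples, fewer cells of a type and less RNA per cell cannot be told apart.

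**Figure D1:**
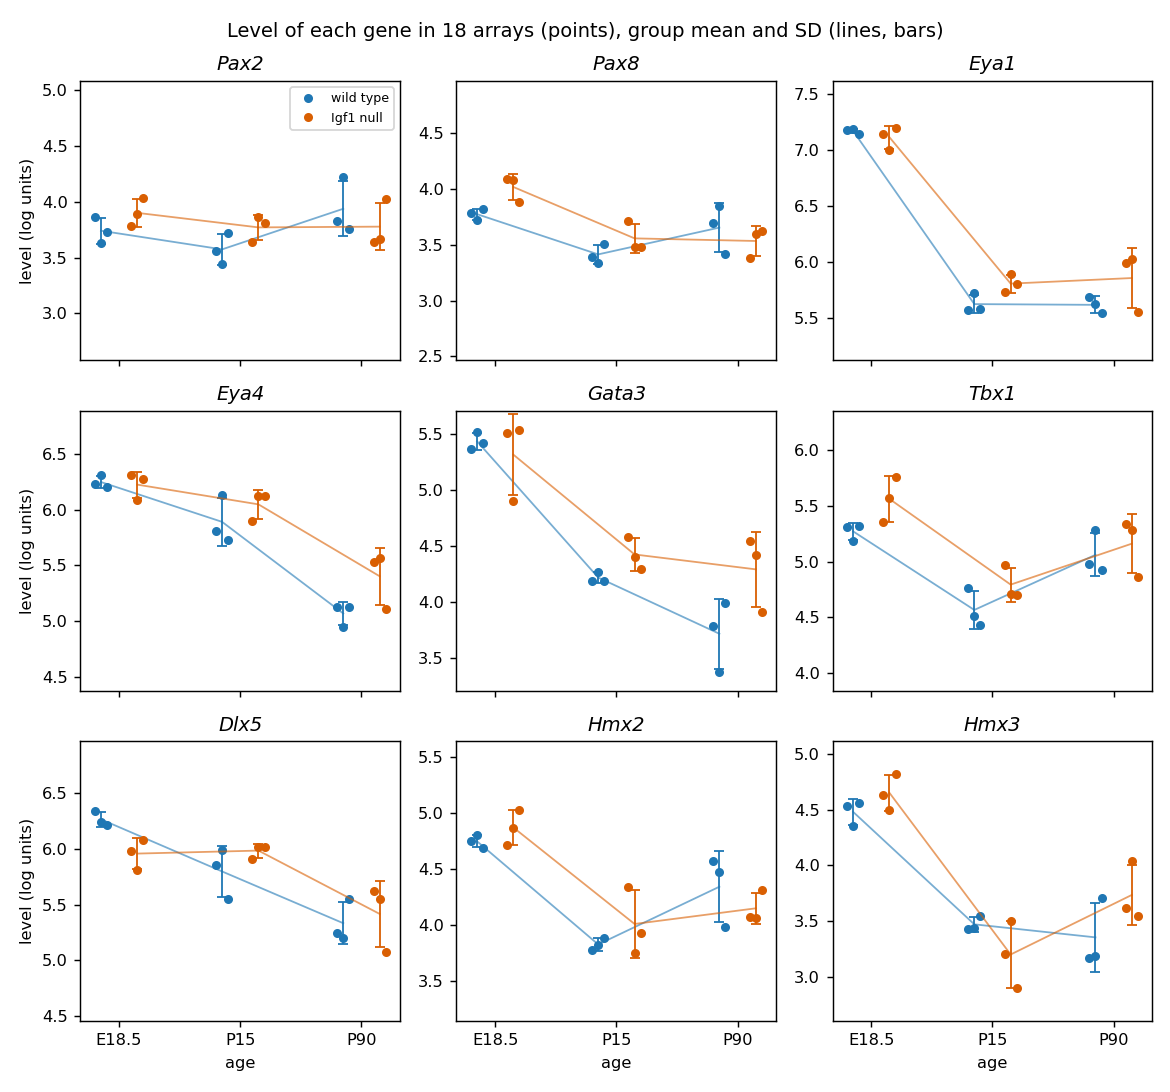
Level of each member (log units after quantile normalization, y axis) in every array, by age on the x axis, with null and wild-type arrays side by side and lines joining the group means and bars giving the SD (n = 3 arrays each); each panel has its own range of levels. For Eya1 all 6 arrays at E18.5 lie at 7.0 or above and all 12 later arrays at 6.03 or below.

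Eya1, the coactivator whose loss stops inner ear development at the vesicle, showed the largest fall of the members in the wild type. Its level was 7.18, 7.19 and 7.15 in the 3 wild-type arrays at E18.5 and 5.57, 5.72 and 5.58 at P15. In the null it was 7.15, 7.0 and 7.20 at E18.5 and 5.73, 5.89 and 5.80 at P15. Every E18.5 array was above every P15 array in both genotypes. The level fell by 1.55 (SE 0.11, adjusted p = 1.94e-08) in the wild type, which is 4.73-fold in base e and 2.93-fold in base 2. The fall in the null was 1.31 units, given as a difference of -1.31 (adjusted p = 1.26e-07).

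Eya4, the related coactivator that is also a deafness gene, followed another course. Wild-type arrays read 6.23, 6.31 and 6.20 at E18.5 and 5.81, 6.13 and 5.73 at P15, so that the highest P15 array lay just under the lowest embryonic one. The difference of -0.36 (SE 0.13, adjusted p = 0.0354) passed the test. In the null, 6.31, 6.09 and 6.27 were followed by 5.90, 6.12 and 6.12, and the groups overlapped (difference -0.18, adjusted p = 0.298).

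Pax2 and Pax8, the paired-domain factors of the early otic field, went different ways in the test. Pax8 read 3.78, 3.72 and 3.82 in the wild type at E18.5 and 3.39, 3.34 and 3.51 at P15, and fell by 0.37 (adjusted p = 0.0136). Its null values were 4.09, 4.08 and 3.88 and then 3.71, 3.48 and 3.48, a fall with difference -0.46 (adjusted p = 0.00334). Neither pair of groups overlapped. For Pax2 the wild-type arrays read 3.86, 3.63 and 3.73 at E18.5 and 3.56, 3.44 and 3.72 at P15, and the null arrays read 3.78, 3.89 and 4.03 and then 3.64, 3.86 and 3.81. These groups overlapped, and the differences of -0.17 (adjusted p = 0.345) and -0.13 (adjusted p = 0.469) did not pass. Pax2 had the smallest span of group means among the members, 0.36.

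Gata3, a zinc finger factor of otic neurons, sensory and prosensory cells and also of T cells, had the widest span, 1.72. Its wild-type values were 5.37, 5.52 and 5.42 at E18.5 and 4.19, 4.27 and 4.19 at P15. Null arrays read 5.51, 4.90 and 5.54 at E18.5 and 4.58, 4.40 and 4.29 at P15. E18.5 null array 2 was low within its group, yet still above every P15 array. The fall was -1.22 (SE 0.19, adjusted p = 7.91e-05) in the wild type and -0.89 (adjusted p = 0.00136) in the null. In the wild type the summed level of 7 measured T-cell markers was 19.40 to 20.99 at E18.5 and 25.39 to 25.64 at P15. By limma 3 of these markers were called higher and 0 lower in the wild type, and 2 and 0 in the null. Of all genes, 19.7% and 20.3% were called higher. The part of T cells in the Gata3 values was not tested.

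Tbx1, the T-box factor that limits neuronal fate in the vesicle and is needed for canal formation, read 5.31, 5.18 and 5.32 in the wild type at E18.5 and 4.76, 4.51 and 4.43 at P15. The null arrays read 5.35, 5.57 and 5.76 and then 4.97, 4.71 and 4.70. The groups did not overlap in either genotype, and Tbx1 fell by 0.70 (adjusted p = 0.00101) and by 0.77 (adjusted p = 0.00055).

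Dlx5, a homeobox factor of the dorsal vesicle that bone-forming cells also express, passed at the earlier step in the wild type alone. Wild-type values of 6.34, 6.24 and 6.21 at E18.5 were followed by 5.85, 5.99 and 5.55, a difference of -0.47 (adjusted p = 0.0148) with no overlap. Null values of 5.98, 5.81 and 6.08 were followed by 5.91, 6.02 and 6.02, a difference of 0.03 (adjusted p = 0.898). The test that the genotype difference was equal at the 3 ages did not pass for Dlx5 (limma F-test, adjusted p = 0.364). Its genomic neighbour Dlx6 moved by -0.71 (adjusted p = 0.00097) in the wild type and by -0.35 (adjusted p = 0.0686) in the null.

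The paired Hmx genes both fell. Hmx2 read 4.75, 4.80 and 4.69 in the wild type at E18.5 and 3.77, 3.82 and 3.88 at P15, and 4.71, 4.87 and 5.03 and then 4.34, 3.75 and 3.93 in the null. Hmx3 read 4.53, 4.35 and 4.56 and then 3.43, 3.44 and 3.55 in the wild type, and 4.63, 4.50 and 4.82 and then 3.21, 3.50 and 2.90 in the null. All E18.5 arrays lay above all P15 arrays for both genes. Hmx2 changed by -0.93 (adjusted p = 0.000155) in the wild type and by -0.86 (adjusted p = 0.000326) in the null. For Hmx3 the differences were -1.0 (adjusted p = 0.000188) and -1.45 (adjusted p = 5.83e-06), the second being the largest early fall of any member in the null. The falls of Eya1, Gata3, Tbx1, Hmx2 and Hmx3 passed in both genotypes under all 27 alternatives with a test of each gene. Many of these could not change the difference itself, such as leaving out an array of a group not compared, or averaging probe sets.

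The later step, from P15 to P90, compared the young with the adult organ and split the members. In the wild type 2 of 9 rose (Tbx1 and Hmx2, against 8.08% of all genes) and 2 fell (Eya4 and Dlx5, against 9.78%). In the null 0 of 9 rose by the limma test (4 members moved with an unadjusted p under 0.05, in either direction), against 6.12% of all genes, and 2 fell, again Eya4 and Dlx5, against 6.83%. The 2 genotypes share no arrays in these comparisons. In the wild type all P90 arrays lay above all P15 arrays for 3 members and 16.9% of all genes. They lay below for 3 members and 17.1%. In the null the P90 arrays lay above for 1 member and 16.6% of all genes, and below for 2 and 15.2%. The member median was -0.00 in the wild type and 0.01 in the null, as for all genes (0.01 and 0.02).

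**Figure D2:**
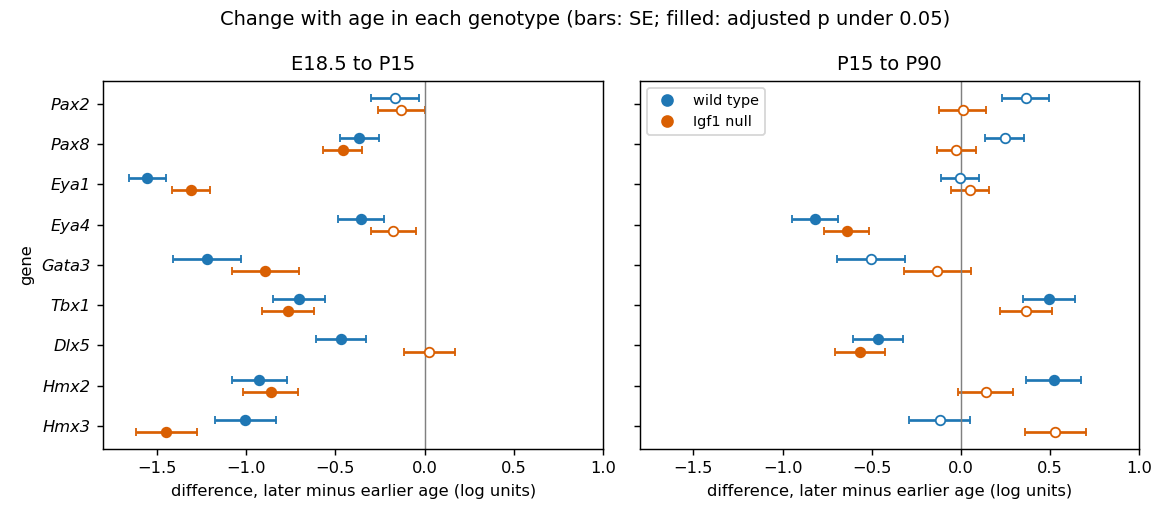
Difference of each member between ages (log units, with standard errors from the limma fit) for the earlier step, P15 minus E18.5, and the later step, P90 minus P15, in wild type and null (n = 3 arrays per group); filled points passed the adjusted test. The points of the earlier step lie at or below 0.03, while those of the later step lie on both sides of 0, with Eya4 at -0.82 and -0.64.

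Eya4 showed the largest later fall. Its wild-type level went from 5.81, 6.13 and 5.73 at P15 to 5.13, 4.95 and 5.13 at P90, and its null level from 5.90, 6.12 and 6.12 to 5.53, 5.57 and 5.11. All P15 arrays were above all P90 arrays within each genotype. The differences were -0.82 (SE 0.13, adjusted p = 0.000987) and -0.64 (adjusted p = 0.00441), or 2.27-fold and 1.9-fold in base e. Dlx5 fell as well, from 5.85, 5.99 and 5.55 to 5.25, 5.20 and 5.55 in the wild type and from 5.91, 6.02 and 6.02 to 5.62, 5.55 and 5.08 in the null. The differences were -0.47 (adjusted p = 0.0354) and -0.57 (adjusted p = 0.0167). As deposited, neither fall passed in the null (Eya4 -0.35, adjusted p = 0.136; Dlx5 -0.27, adjusted p = 0.251), where 5 other members did, as 7761 of all genes passed against 2582. With array weights, 7 wild-type members passed at this step, and without P90 wild-type array 3 the number was also 7. In those fits 4427 and 4895 of all genes passed, against 3561.

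Tbx1 and Hmx2 were the members that rose in the wild type, over a step in which Xist was lower at the end (1.86 to 3.33) than at the start (5.34 to 7.48). Tbx1 went from 4.76, 4.51 and 4.43 to 4.98, 5.28 and 4.92, a rise of 0.49 (adjusted p = 0.0305). Hmx2 went from 3.77, 3.82 and 3.88 to 4.57, 4.47 and 3.98, a rise of 0.52 (adjusted p = 0.0319). Neither gene's groups overlapped, although the third P90 array of Hmx2 lay close to the P15 range. Both rises and the fall of Dlx5 lost the call without any 1 of P15 wild-type array 2, P90 wild-type array 1 or P90 wild-type array 2, which left 1 member called. Calls over all genes dropped as well in those fits, to 1271, 2277 and 1377, against 3561. The same 3 calls were lost with Xist as a covariate, where Tbx1 had 0.62 (adjusted p = 0.19), Hmx2 0.65 (adjusted p = 0.191) and Dlx5 -0.66 (adjusted p = 0.152), and with only the groups compared in the fit. With Xist 400 of all genes passed, and with only the groups compared 1041. In the null the differences were 0.37 for Tbx1 (adjusted p = 0.12) and 0.14 for Hmx2 (adjusted p = 0.633), and the null groups overlapped for both genes.

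The other 5 members did not pass at the later step. Eya1 was close to its P15 level, with 5.69, 5.62 and 5.54 in the P90 wild type (difference -0.004, adjusted p = 0.983) and 5.99, 6.03 and 5.55 in the P90 null (difference 0.05, adjusted p = 0.822). Gata3 read 3.78, 3.37 and 3.99 in the P90 wild type, all below the P15 arrays, with a difference of -0.50 (adjusted p = 0.076). In the P90 null it read 4.54, 4.42 and 3.91, overlapping P15 (difference -0.13, adjusted p = 0.721). Hmx3 read 3.17, 3.19 and 3.71 in the P90 wild type, on both sides of its P15 range (difference -0.12, adjusted p = 0.66). In the null it stood at 3.62, 4.04 and 3.55, above all 3 P15 null arrays (difference 0.53, adjusted p = 0.0531). Pax2 was at 3.83, 4.22 and 3.76 in the P90 wild type, above P15 (0.36, adjusted p = 0.0706), and at 3.64, 3.67 and 4.02 in the P90 null (0.01, adjusted p = 0.978). Pax8 was at 3.69, 3.85 and 3.42 in the wild type (0.24, adjusted p = 0.132) and at 3.38, 3.60 and 3.62 in the null (-0.03, adjusted p = 0.922).

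Whether the later step differed from the earlier one was tested as a difference of differences, a contrast added after seeing the data. The later step was higher for 5 wild-type members, against 12.6% of all genes: Eya1 by 1.55 (adjusted p = 2.58e-05), Hmx2 by 1.44 (adjusted p = 0.000963), Tbx1 by 1.20 (adjusted p = 0.0025), Hmx3 by 0.88 (adjusted p = 0.0383) and Pax8 by 0.61 (adjusted p = 0.0275). In the null it was higher for 4, against 11% of all genes: Hmx3 by 1.98 (adjusted p = 0.000176), Eya1 by 1.36 (adjusted p = 7.44e-05), Tbx1 by 1.13 (adjusted p = 0.00388) and Hmx2 by 1.00 (adjusted p = 0.0123). The wild-type number was 3 without E18.5 wild-type array 3, P15 wild-type array 1 or P15 wild-type array 2, and the null number was 8 with array weights, where 7311 of all genes passed in either direction against 4657. Eya4 had the opposite sign, -0.46 in both genotypes, and did not pass (adjusted p = 0.14 and 0.148).

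In the order of its 6 group means, Eya1 had both E18.5 groups at the top (7.18 in the wild type and 7.12 in the null), then the P90 null (5.86), the P15 null (5.81) and both older wild-type groups (5.62). The arrays of both embryonic groups overlapped, as did those of the P90 null with each later group, while the P15 null arrays lay above those of both older wild-type groups. Eya4 stepped down with age, from 6.25 and 6.22 at E18.5 through 6.05 and 5.89 at P15 to 5.41 and 5.07 at P90. Dlx5 had its highest mean in the E18.5 wild type (6.26), a middle set of the P15 null, E18.5 null and P15 wild type (5.99, 5.96 and 5.80), and the lowest at P90 (5.42 and 5.33). Tbx1 had its lowest means at P15 (4.79 and 4.57), under P90 (5.16 and 5.06) and E18.5 (5.56 and 5.27). For Hmx3 the E18.5 groups (4.65 and 4.48) stood above the P90 null (3.73), P15 wild type (3.47), P90 wild type (3.35) and P15 null (3.21).

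Profiles of members over the 6 group means were compared by their root mean square distance after centring, as a description over groups that share a scale and a dissection. The nearest pairs were Tbx1 and Hmx2 (0.146), Pax2 and Pax8 (0.149) and Eya4 and Dlx5 (0.157), followed by Pax8 and Tbx1 (0.167) and Eya1 and Gata3 (0.197). The farthest pairs were Pax2 and Eya1 (0.66) and Pax2 and Gata3 (0.627). Hmx2 was thus nearer to Tbx1 than to its neighbour Hmx3. Across the genes above the median level, for the 5 members whose group means spanned over 1 unit, the nearest to Eya1 were Foxp2 (0.0216), a forkhead transcription factor, and Tspan18 (0.0388), a tetraspanin. The nearest to Eya4 were the probe set annotated to Mir218-1 (0.0521) and Kirrel (0.0575), an adhesion molecule. Gata3 was followed most closely by Bend5 (0.0608) and Tmem45a (0.0683), Hmx2 by Phf13 (0.0635) and Rnf217 (0.068), and Hmx3 by Sostdc1 (0.0603), a secreted antagonist of BMP and WNT signals, and Dpt (0.106), a matrix protein.

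The genotype comparison asked, at each age, how the members stood without Igf1. With limma, 0 of 9 members passed at E18.5 (0.0802% of all genes did), 0 at P15 (0.015%) and 0 at P90 (0.296%). No member passed in the mean of the 3 ages (0.0351% of all genes) or in the F-test of a genotype difference that changes with age (0.256%). An unadjusted p under 0.05 was found for 2 members at E18.5, 0 at P15, 4 at P90, 1 in the mean of the ages and 1 in the F-test. Of all genes, 16, 3 and 59 passed at the 3 ages, while 2501, 1389 and 2213 were below 0.05 before adjustment. With array weights 2 members passed at P90, Gata3 (0.74, adjusted p = 0.0281) and Eya4 (0.46, adjusted p = 0.0468), and Hmx3 passed the F-test. In those fits 587 and 1079 of all genes passed, against 59 and 51.

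**Figure D3:**
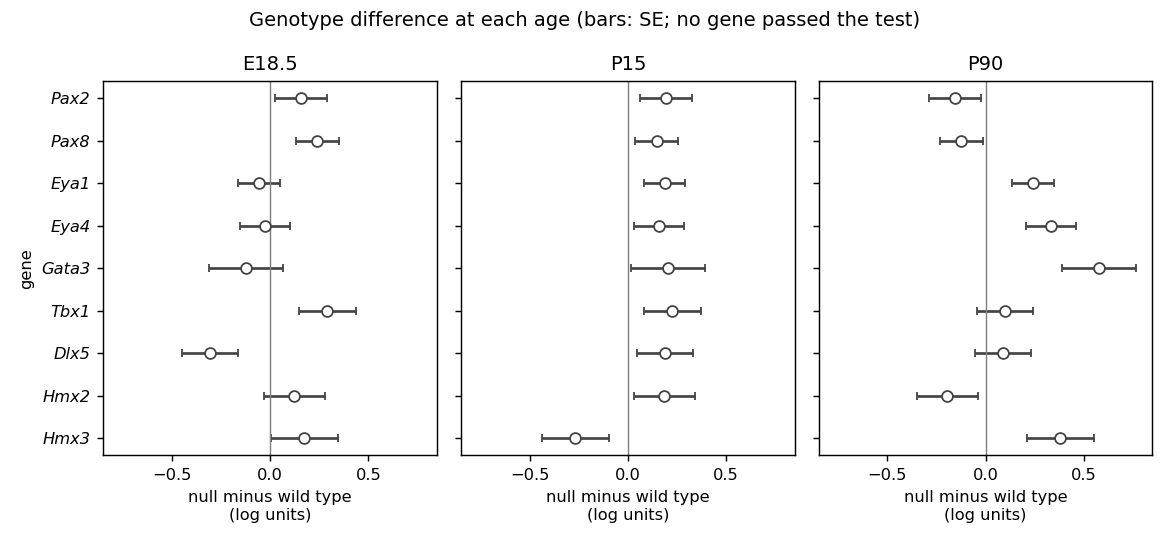
Null minus wild type for each member (log units, with standard errors from the limma fit) at E18.5, P15 and P90, n = 3 arrays per group. At P90 Gata3 stands highest at 0.58, and no member passes the adjusted test at any age.

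Gata3 had the largest single difference, at P90. Its null arrays read 4.54, 4.42 and 3.91 and its wild-type arrays 3.78, 3.37 and 3.99, a difference of 0.58 (SE 0.19, adjusted p = 0.277). Null arrays 1 and 2 were above all wild-type arrays, and null array 3 was below the highest of them. The same array 3 separated from its group in Eya1 (5.99, 6.03 and 5.55) and in Eya4 (5.53, 5.57 and 5.11). Wild-type levels there were 5.69, 5.62 and 5.54 for Eya1, a difference of 0.24 (adjusted p = 0.424), and 5.13, 4.95 and 5.13 for Eya4, a difference of 0.33 (adjusted p = 0.355). Hmx3 differed by 0.38 (adjusted p = 0.43). Without P90 null array 3, Eya1 passed (0.39, adjusted p = 0.0378), the count of members was 1, and 201 of all genes passed against 59.

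P90 null array 3 was the lowest of its group for 6 of the 9 members and the highest for the other 3, Pax2, Pax8 and Hmx2. Several other lists also had their lowest mean level there: 6.26 over the 8 fibrocyte and periotic mesenchyme genes against 6.47 and 6.62 in the other 2 arrays, and 5.10 over the 12 supporting cell genes against 5.24 and 5.27. The 14 hair cell genes had a mean of 4.25, beside 4.24 and 4.39. The cerebellum and hindbrain genes were highest in array 3, at 6.55 beside 6.34 and 6.24, as were the neuron genes, at 6.28 beside 6.22 and 6.26. Across the P90 groups the summed level of the hair cell list was 59.29 to 61.49 in the null and 56.23 to 56.63 in the wild type, that of the supporting cells 61.20 to 63.20 and 59.59 to 59.82, and that of the fibrocytes 50.06 to 52.95 and 48.87 to 49.27. The P90 null stood higher for 12 of 14, 10 of 12 and 7 of 8 genes of these lists, of which a single one was called by limma, Ocm, the hair cell calcium buffer oncomodulin (0.73, adjusted p = 0.049). The part of cell makeup and of sex in the P90 values was not tested beyond the alternative with Xist as a covariate.

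At E18.5 the members divided. Pax8 read 4.09, 4.08 and 3.88 in the null and 3.78, 3.72 and 3.82 in the wild type (0.24, adjusted p = 0.392). Tbx1 read 5.35, 5.57 and 5.76 and 5.31, 5.18 and 5.32 (0.29). Dlx5 was the other way, with 5.98, 5.81 and 6.08 in the null and 6.34, 6.24 and 6.21 in the wild type (-0.31, adjusted p = 0.395). The groups did not overlap for these 3 genes, and they overlapped for the other 6. Groups without overlap occurred in 19.7% of all genes at this age. Muscle and bone lists had groups apart here, although most of their genes did not pass the test. The summed level of 10 muscle genes was 63.88 to 67.80 in the null and 55.20 to 59.59 in the wild type, and that of 6 measured osteoblast genes 33.43 to 35.05 and 37.73 to 38.42. By limma 4 of the 10 muscle genes were higher in the null and passed, and none of the 6 osteoblast genes passed. Their part in the Dlx5 and Tbx1 differences was not tested.

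At P15, 8 of 9 members were higher in the null, with a member median of 0.19 beside 0.01 over all genes. Hmx3 was the exception at -0.27. The shift was not particular to the members. At P15 the null was also higher for 29 of 34 other otic regulators (median 0.11) and 11 of 12 supporting cell genes (0.13). It was higher for 6 of 8 fibrocyte and periotic mesenchyme genes (0.19) and 10 of 14 hair cell genes (0.125). Family relatives, with 13 of 23 higher (0.03), stood nearer to all genes. Eya1 (5.73, 5.89 and 5.80 against 5.57, 5.72 and 5.58) and Gata3 (4.58, 4.40 and 4.29 against 4.19, 4.27 and 4.19) had groups without overlap, as did 16.5% of all genes. Over the mean of the ages Tbx1 was higher by 0.21 (SE 0.08, adjusted p = 0.551) and Gata3 by 0.22 (adjusted p = 0.682). Neither passed.

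The other genes of the PAX, EYA, DACH and sine oculis network moved with Eya1 at the earlier step. Of 8 measured, 6 fell in the wild type and 6 in the null and 0 rose (limma), with medians of -0.93 and -0.76. Of all genes, 21.9% fell and 19.7% rose in the wild type, and 20.5% and 20.3% in the null. Six2, a homeobox partner of EYA proteins, changed by -1.74 (adjusted p = 3.48e-07) in the wild type and by -1.45 (adjusted p = 2.63e-06) in the null. Six4 changed by -1.21 and -1.01 and Dach2, a cofactor of the network, by -1.28 and -1.0. At the later step Dach2 alone passed, with -0.85 in the wild type and -0.60 in the null. All 8 were higher in the null at P90, with a median of 0.27 and an unadjusted p under 0.05 for 4, and none passed by limma, Six4 and Six2 having the values 0.47 (adjusted p = 0.103) and 0.63 (adjusted p = 0.124).

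Of 34 other measured otic regulators, 7 rose and 15 fell at the earlier step in each genotype. The number that rose was near the share of all genes that did (19.7% and 20.3%), and the number that fell was above it (21.9% and 20.5%). Sox9, a factor of the otic placode and of cartilage, changed by -1.93 in the wild type and -1.88 in the null, and Fgf10, a growth factor of the otic epithelium, by -1.43 in the wild type. The largest rise was that of Neurod1, a neurogenic factor that cerebellar granule cells hold at high level, with 5.98 in the wild type and 5.29 in the null. Otx2, a homeobox factor of brain and ear, rose by 1.78 and 1.97. At the later step 3 rose and 3 fell in the wild type, beside 8.08% and 9.78% of all genes. Among them were Sox9 (0.30), Gata2 (0.31), Id3 (-0.86) and Fgfr2 (-0.34). In the null 1 rose, Sox9 (0.32), and 4 fell, among them Dlx3 (-0.53), Zfpm2 (-0.44) and Tbx2 (-0.33), beside 6.12% and 6.83% of all genes. In the genotype comparisons 0 of them passed at any age by limma, and 2, 5 and 6 had an unadjusted p under 0.05 at E18.5, P15 and P90.

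Among 23 family relatives of the members, 4 rose and 11 fell at the earlier step in the wild type, and 4 rose and 10 fell in the null, beside the same shares of all genes, which the risers did not exceed. Pax6, a factor of brain and eye, rose by 3.54 and 3.21, and Pax5, a factor of B cells and of the midbrain and hindbrain border, by 2.49 and 1.92. Tbx18, a factor of the periotic mesenchyme, changed by -1.76 and -1.33, and Tbx15 by -1.31 and -1.18. Pax5 went down again at the later step, by -1.29 and -1.88, and was the relative that passed between genotypes at P90 (-0.94, adjusted p = 0.0222).

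**Figure D4:**
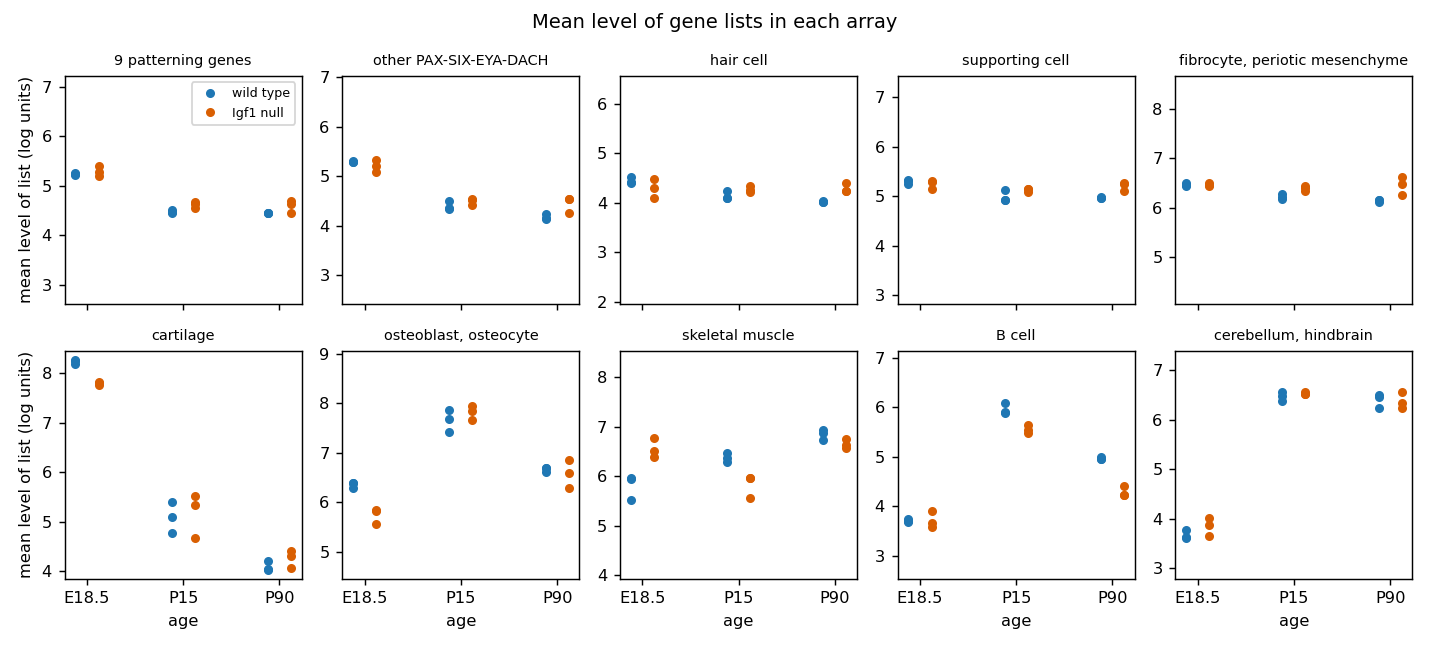
Mean level of each gene list (log units after quantile normalization) in every array, by age and genotype, for the members, the other network genes and markers of cell types that the dissection could hold. The cerebellum and hindbrain list lies between 3.60 and 4.01 at E18.5 and between 6.38 and 6.57 at P15, a step in which the member list goes down.

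Markers of other tissues moved with age over the same arrays, as the plot of list levels shows. For 9 cerebellum and hindbrain genes the summed level went from 32.44 to 33.98 in the E18.5 wild type to 57.45 to 58.95 in the P15 wild type, and from 32.88 to 36.12 to 58.67 to 59.10 in the null, with 8 of 9 called higher in each genotype. The share of all genes called higher was 19.7% in the wild type and 20.3% in the null. Gabra6, the GABA receptor subunit of cerebellar granule cells, rose by 5.44 and 5.53. The 6 measured B-cell genes went from 22.04 to 22.43 to 35.25 to 36.56 in the wild type. For 7 cartilage genes the summed level went down from 57.34 to 57.86 at E18.5 to 33.39 to 37.84 at P15 in the wild type, and from 54.32 to 54.74 to 32.67 to 38.58 in the null, with 7 and 6 called lower. The share of all genes called lower was 21.9% in the wild type and 20.5% in the null. The part of these tissues in the members' falls was not tested.

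The inner ear's own lists were measured beside them. Of 14 hair cell genes, 9 fell and 1 rose at the earlier step in the wild type (median -0.66), and 7 fell and 2 rose in the null (median -0.45). Of all genes, 21.9% fell and 19.7% rose in the wild type, and 20.5% and 20.3% in the null. Pou4f3, the hair cell survival factor, changed by -1.22 and -1.05, and Otof, the synaptic calcium sensor, by -0.97 and -0.69. Pou4f3 was dim at P15, at percentiles 11.3 and 10.5 of all genes. Calb2 of the same list went the other way and further. Its group means were 3.85 at E18.5 and 7.24 at P15 in the wild type, and 3.15 and 7.18 in the null. Among 12 supporting cell genes 4 fell and 3 rose in the wild type, and 5 fell and 4 rose in the null, beside the same shares of all genes. Tecta, a matrix protein that supporting cells make during development, changed by -2.04 and -1.87. Of 8 fibrocyte and periotic mesenchyme genes 3 rose and 3 fell in the wild type, and 3 rose and 4 fell in the null, again beside those shares. In the wild type the summed level of the hair cell list ran from 61.55 to 63.18 at E18.5 and from 57.23 to 59.33 at P15. That of the members ran from 46.94 to 47.34 and from 40.14 to 40.66. The hair cell sums include Calb2, whose rise works against the falls in that list. With it included, the hair cell ranges overlapped in the null, at 57.26 to 62.63 and 59.03 to 60.61. Those of the members did not, at 46.71 to 48.59 and 41.06 to 41.99.

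Bone genes followed another course beside Dlx5. All 6 measured osteoblast and osteocyte genes rose at the earlier step and all 6 fell at the later one in both genotypes, with summed levels in the wild type of 37.73 to 38.42 at E18.5, 44.56 to 47.19 at P15 and 39.68 to 40.14 at P90. Of all genes, 19.7% and 20.3% rose at the earlier step in wild type and null, and 9.78% and 6.83% fell at the later one. Dlx5 did not rise with the bone genes at the earlier step and fell with them at the later one. The part of bone cells in the Dlx5 values was not tested. Thyroid genes, which Pax8 also regulates, had summed levels between 17.43 and 19.44 in all groups, with 5 genes measured. Single thyroid genes did move by limma, beside the shares of all genes given above for each comparison. At the earlier step 1 was called higher in the wild type, and 1 higher and 1 lower in the null. At the later step 2 were called higher in the wild type and 0 in the null. At P90, 1 was called lower in the null than in the wild type.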

How the data were processed

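The arrays measured vestibular organ RNA, which per the labels' protocols was extracted with Trizol, amplified from 100 ng and labelled. The authors deposited 1 table of log values, likely natural log, for 28853 probe sets in 18 arrays; how probes were summarized and corrected for background, and which log base was used, is not stated in the labels or headers. Deposited array medians ran from 3.88 to 4.82, so the arrays were quantile normalized. Symbols were those of the array platform's annotation, possibly outdated (23410 probe sets listed, 21789 with 1 symbol, 1621 with several and 5443 not listed), and were updated through RefSeq identifiers of GRCm38.p6 (21698 matched). The probe set with the highest mean was kept for each gene, which left 19938 genes and no filter on dim ones.

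Group means were fitted over all 18 arrays in R 4.3.3 by limma 3.58.1 (functions lmFit and eBayes, with 12 residual degrees of freedom), and p-values were Benjamini-Hochberg adjusted over all genes with a threshold of 0.05. The fit was tested on simulated data. The members and lists were chosen with earlier results of these data known. Named genes were the 9 members, up to 4 passing genes of each regulator list and contrast with the smallest p, defining markers, and the 2 nearest profiles of members spanning over 1 unit; Six4 and Six2 at P90 and Dlx6 were named after their values were seen. Between replicates of a group at most a share of 0.0011 of values was equal, so no library was counted as a repeat. Replicate numbers were not used as pairs. Alternatives were values as deposited, array medians subtracted, array weights, Xist as a covariate, a term for, or leaving out, 4 arrays set off within their groups on the third component, the groups compared alone, a filter on dim genes, the replicate number as a block and leaving out each array. A further alternative took the mean of a gene's probe sets, which leaves the values of the members as they were, each having 1 probe set.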

Additional observations from a re-analysis of the deposited data

How the results depend on the processing

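Counts of members called moved as follows. With array weights they were 2 for genotype at P90, 7 for the wild-type and 4 for the null later step, 8 for the null difference of steps and 1 for the F-test. With values as deposited they were 5 for the wild-type earlier step and 5 for the null later step. The wild-type later step gave 1 with Xist as a covariate, 1 after fitting a term to the 4 arrays set off within their groups on the third component, 1 with only the groups compared, and 0 without those 4 arrays, an alternative chosen after seeing the data. That last fit has 1 P90 wild-type array, assumed to vary like the other groups, and says nothing about stability. The null later step gave 1 with only the groups compared, where 1454 of all genes passed against 2582. Calls over all genes also dropped in the wild-type later step, from 3561. They were 400 with Xist, 1022 with the term and 1041 with only the groups compared. Leaving out 1 array gave 0 to 1 for genotype at P90, 1 to 7 and 1 to 3 for the wild-type and null later steps, and 3 to 5 for the wild-type difference of steps. Other counts stayed within 1.5 times.

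None of the values that changed sign was called as reported. As deposited, Pax8 at P90 by genotype was 0.026, Pax2 0.013 in the wild-type and 0.16 in the null earlier step, Eya4 0.14 in the null earlier step, Eya1 0.044 and Hmx3 0.4 in the wild-type later step, and Pax8 0.51 and Gata3 0.31 in the null later step. With medians subtracted, the later step was 0.12 for Hmx3 in the wild type, and 0.094 for Pax8 and -0.099 for Eya1 in the null. With array weights it was 0.024 for Eya1 in the wild type, and -0.099 for Pax2, 0.056 for Pax8 and 0.04 for Gata3 in the null. With Xist as a covariate, Tbx1 at P90 by genotype was -0.051, the null earlier step of Dlx5 -0.019, the wild-type later step 0.0077 for Eya1 and 0.095 for Hmx3, and the null later step of Pax2 -0.0047. With a term for the 4 arrays, genotype at E18.5 was 0.047 for Eya4, 0.11 for Gata3 and -0.14 for Hmx2, genotype at P90 was -0.029 for Dlx5 and 0.064 for Hmx2, the null earlier step was 0.02 for Pax2 and -0.091 for Dlx5, and the wild-type later step of Hmx3 was 0.048. The cause was not tested.

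Leaving out 1 array also turned signs. Genotype at E18.5 ran from -0.1 to 0.0022 for Eya1, -0.071 to 0.043 for Eya4 and -0.23 to 0.086 for Gata3, and at P90 from -0.013 to 0.26 for Dlx5. The null earlier step of Dlx5 ran from -0.044 to 0.088, and the wild-type later step of Eya1 from -0.04 to 0.043. In the null later step the ranges were -0.11 to 0.077 for Pax2, -0.069 to 0.053 for Pax8, -0.034 to 0.2 for Eya1 and -0.26 to 0.057 for Gata3.

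Deviations of same-numbered arrays from their group means had correlations from -0.34 to 0.24 over 45 pairs, 6 of them above 0.1. Differently numbered arrays were not compared, so the check cannot exclude that the numbers pair arrays. The replicate block moved the wild-type later step to 3 members and the wild-type difference of steps to 4, and changed no other count. Across the 27 alternatives the earlier fall ran from -1.77 to -1.48 for Eya1 and from -1.39 to -1.1 for Gata3 in the wild type. With 3 arrays a group, genotype differences of the sizes seen were not resolved after adjustment.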
